A study of Mus musculus with 8 samples.

Results

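Among 23908 gene symbols with a usable value in 8 RNA-seq libraries of mouse pro-B cell lines, 52 were near zero in the WT line and expressed in each of the 3 mutant lines. They were chosen by their values: FPKM (fragments scaled to transcript length and to mapped reads) under 0.5 in both WT libraries and of 2 or more in all 6 libraries of the mutant lines, with chromosomes 18, 19 and Y and 7 named genes left out. The lines were an Eµ-deleted line (Eµ-/-), CBE line 2 and CBE line 1 (both CBE-/-, with the genotype given as a deletion of IGCR1), and a WT line, with 2 libraries of each. All were bone marrow pro-B lines of strain 129SV, grown untreated in RPMI medium with serum. The Eµ-deleted and WT genotypes were each a single line, so genotype and line cannot be told apart. Whether the 2 libraries of a line are separate cultures is not given in the labels, so each p-value reflects library-to-library spread, which may be technical.

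Pro-B cells are early B lymphocyte precursors that assemble their immunoglobulin heavy chain locus. Eµ is the intronic enhancer of that locus, and IGCR1 is a control region between its V and D segments that holds CTCF-binding elements (CBEs). In mammals, promoters rich in CpG dinucleotides are typical of broadly expressed genes and CpG-poor promoters of tissue-restricted ones. The RNA was measured in bulk, so fewer cells with an RNA and less of it per cell cannot be told apart.

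The 52 genes came with both kinds of promoter. In RefSeq promoter windows of 300 bases (250 before and 50 after the start, GRCm38.p6), 43 of the 52 genes were matched, and 30 of the 43 (69.8%) were CpG-dense, with a CpG observed-over-expected ratio above 0.6 and GC above 50%. The share was 80.2% over 6702 matched genes of 2 or more FPKM in all 6 mutant libraries and 35.9% over all 25931 genes of the promoter table. The 150 bases before the start are shown for the 3 genes listed at 0 in both WT libraries (Smyd2, Gng12 and Itm2c), for 2 of the highest in the mutant lines (Ngfrap1 and Hmces), and for 2 with few CpGs (Itm2a and Ctla2b), 5′ to 3′ on the gene's strand, with each CG in capitals.
Smyd2: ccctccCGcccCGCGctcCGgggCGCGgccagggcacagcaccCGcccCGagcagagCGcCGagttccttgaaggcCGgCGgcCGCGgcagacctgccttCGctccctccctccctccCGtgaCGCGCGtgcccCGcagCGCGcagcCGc
Gng12: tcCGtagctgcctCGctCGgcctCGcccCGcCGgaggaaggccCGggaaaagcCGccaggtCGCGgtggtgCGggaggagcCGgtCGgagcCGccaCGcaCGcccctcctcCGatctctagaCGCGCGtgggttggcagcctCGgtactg
Itm2c: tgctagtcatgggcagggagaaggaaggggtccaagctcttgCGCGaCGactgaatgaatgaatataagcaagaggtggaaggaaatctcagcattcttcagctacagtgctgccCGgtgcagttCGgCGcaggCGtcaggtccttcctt
Ngfrap1: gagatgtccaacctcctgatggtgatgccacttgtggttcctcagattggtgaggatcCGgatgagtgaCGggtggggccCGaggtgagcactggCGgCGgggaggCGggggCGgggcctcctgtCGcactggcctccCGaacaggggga
Hmces: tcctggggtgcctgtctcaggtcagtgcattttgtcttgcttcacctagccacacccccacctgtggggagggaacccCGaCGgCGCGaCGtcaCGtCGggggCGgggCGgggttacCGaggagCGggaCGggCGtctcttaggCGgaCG
Itm2a: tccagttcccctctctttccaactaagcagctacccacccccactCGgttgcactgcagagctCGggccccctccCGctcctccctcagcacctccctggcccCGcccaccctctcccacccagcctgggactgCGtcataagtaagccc
Ctla2b: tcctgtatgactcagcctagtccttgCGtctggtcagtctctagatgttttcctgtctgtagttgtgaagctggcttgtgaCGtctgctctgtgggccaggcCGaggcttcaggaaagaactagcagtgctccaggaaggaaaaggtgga
The GRCm38.p6 positions are chr1:189922292-189922441 (minus strand) for Smyd2, chr6:66896741-66896890 (plus strand) for Gng12, chr1:85894360-85894509 (plus strand) for Itm2c, chrX:136270103-136270252 (plus strand) for Ngfrap1, chr6:87913826-87913975 (plus strand) for Hmces, chrX:107403361-107403510 (minus strand) for Itm2a and chr13:60897448-60897597 (minus strand) for Ctla2b. The shown stretches hold 23 CpGs for Smyd2, 21 for Gng12 and 15 for Hmces, against 9 for Ngfrap1, 7 for Itm2c, 5 for Itm2a and 3 for Ctla2b. The 3 genes listed at 0 in WT therefore included both CpG-crowded stretches and a sparser one, although the full 300-base window of Itm2c, with 20 CpGs, was CpG-dense too.

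**Figure D1:**
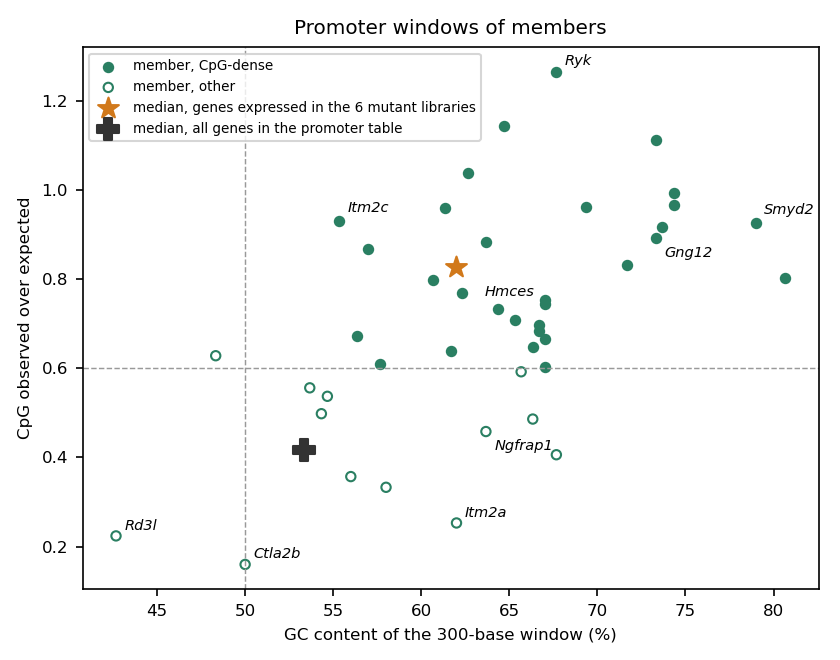
GC content in percent (x axis) and CpG observed over expected (y axis) of the 300-base promoter window of 43 genes that were near zero only in WT; filled points are CpG-dense, dashed lines mark 50% and 0.6, and the star and cross are medians of the expressed genes and of the whole promoter table. Most points (30 of 43) lie in the upper right, with Ctla2b, Rd3l and Itm2a among the lowest ratios.

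Across the 43 windows the median was 22 CpGs, a ratio of 0.709 and a GC content of 64.7%, against 23 CpGs, 0.828 and 62% for the expressed genes. Short motifs were searched on both strands. GGGCGG, the GC box read by Sp-family factors, was in 35 of 43 windows (81.4%), against 70.2% of expressed genes and 37.5% of all genes. CCGGAAG, the core of ETS-family sites, was in 3 of 43 (6.98%; Mpg, Npepl1 and Rcbtb1), against 23.4% and 9.42%. CCAAT was in 12 of 43 (27.9%), against 39.4% and 37.5%. The E-box CACGTG was in 6 (13.95%), against 11.4% and 7.48%, and TATAAA in 2 (4.65%; Rd3l and Ryk), against 5.64% and 13.8%. GGGCGG can overlap a CpG count because it holds CG itself, and a match describes letters only.

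In the mutant lines the 52 genes were of moderate level. Their median FPKM was 7.50 and 8.80 in the Eµ-deleted libraries, 9.41 and 9.67 FPKM in CBE line 2, 8.51 and 9.05 FPKM in CBE line 1, and 0.0586 and 0.0371 in WT. Their summed FPKM was 569 and 629 in the Eµ-deleted line, 757 and 766 FPKM in CBE line 2, 597 and 648 FPKM in CBE line 1, and 7.47 and 5.605 in WT. By the rule the groups do not overlap. The mean over the 6 mutant libraries was 10 FPKM or more for 21 genes and under 5 for 12, with a median of 9.31, against 18.4 for the 8669 genes of 2 or more FPKM in all 6. In WT, 30 genes were under 0.1 FPKM in both libraries, 13 were listed at 0 in 1 library and 3 in both. An FPKM of 0 can be a failed estimate, and the deposited intervals do not settle that. The mutant minus WT difference of log2(FPKM + 1), which chose the genes and gets no test, had a median of 3.08 and ran from 1.75 to 5.54.

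**Figure D2:**
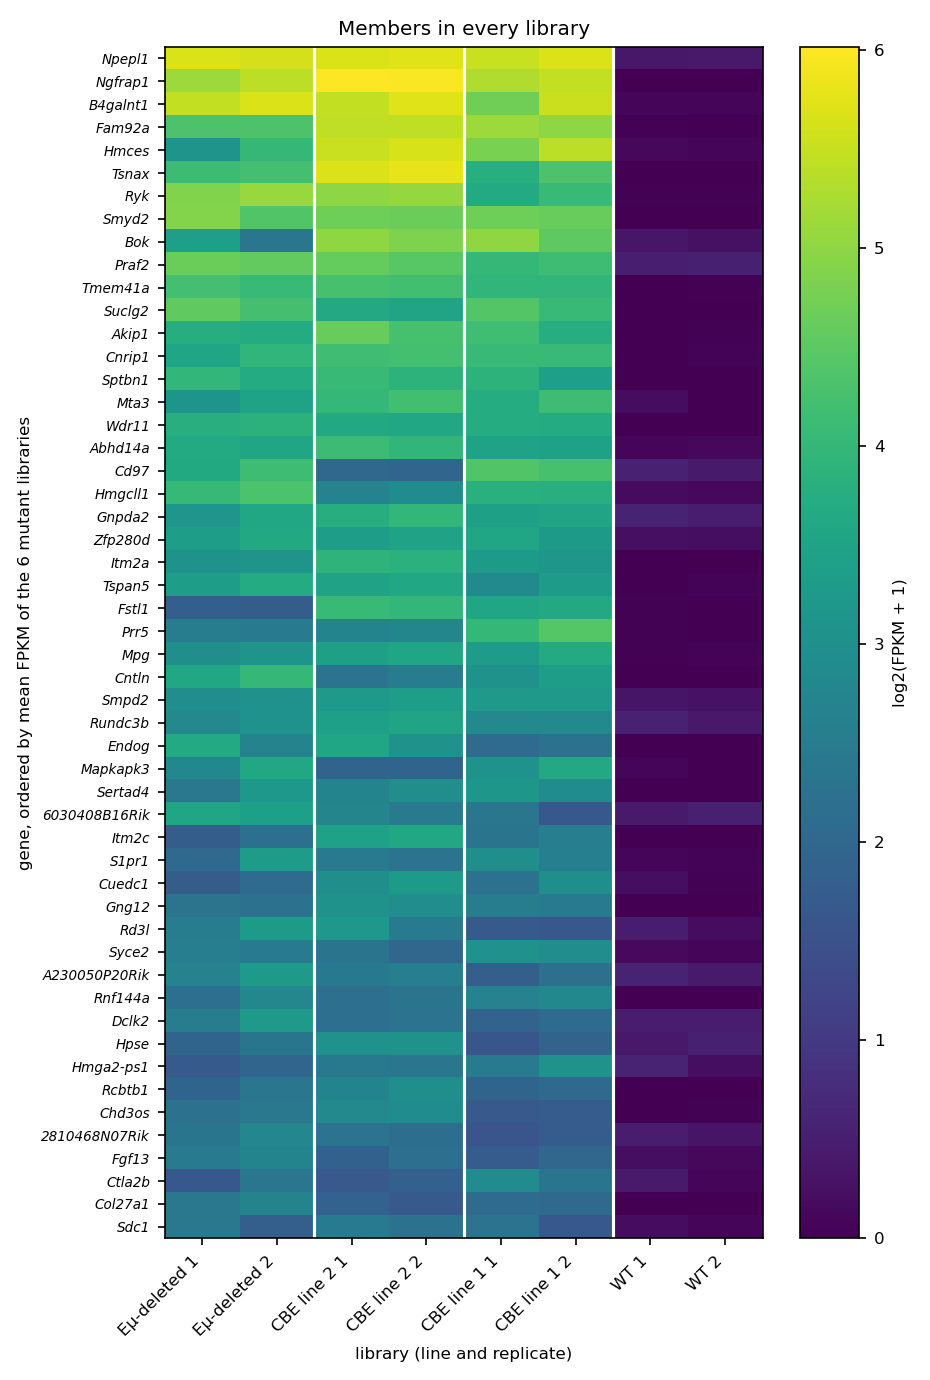
Expression as log2(FPKM + 1) (colour) of the 52 genes (down, ordered by mean FPKM over the mutant libraries) in each of 8 libraries (across: Eµ-deleted, CBE line 2, CBE line 1, WT). The 2 WT columns are dark throughout because of the rule, and the 6 mutant columns differ among themselves most visibly for Hmces, Tsnax, Bok, Cd97 and Fstl1.

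The rule was sparse in its yield: the 52 genes were 0.640% of 8127 genes of 2 or more FPKM in all mutant libraries after the same exclusions. With another line put in the place of WT, it gave 14 genes for the Eµ-deleted line, 2 for CBE line 2 (Ext1 and Slc2a3) and 1 for CBE line 1 (Slc37a1). In the opposite direction, 17 genes had 2 or more FPKM in both WT libraries and under 0.5 in the other 6. Just inside the WT limit were Gnpda2, Hmga2-ps1 and A230050P20Rik, whose higher WT values were 0.492, 0.489 and 0.481 FPKM, and just outside were Dab2ip, Sept10 and Gm14005 (0.520, 0.525 and 0.580). Just inside the mutant limit were 2810468N07Rik, Hpse and Rd3l, with lowest mutant values of 2.02, 2.06 and 2.09 FPKM, and just outside were Herc3, Raet1d and Aco1 (1.97, 1.95 and 1.91).

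Genes of DNA repair, nucleases and meiosis were Hmces, Mpg, Endog, Tsnax and Syce2. Hmces (mm9 chr6:87863970-87886607), which crosslinks to abasic sites in single-stranded DNA and shields them, had 7.58 and 15.0 FPKM in the Eµ-deleted line, 44.9 and 49.6 FPKM in CBE line 2, 26.9 and 41.7 FPKM in CBE line 1, and 0.0916 and 0.0575 in WT. The Eµ-deleted libraries were the lowest mutant ones and did not overlap the CBE libraries (log2 difference -1.80, SE 0.27, adjusted p = 0.00671). Tsnax (chr8:127536897-127558092), the partner of translin in the C3PO ribonuclease, had 16.3 and 17.5 FPKM in the Eµ-deleted line, 50.6 and 55.4 FPKM in CBE line 2, 12.95 and 19.2 FPKM in CBE line 1, and 0 and 0.0158 in WT. These values are sums over 2 loci listed for Tsnax, and the position given is that of a single locus. CBE line 2 stood above CBE line 1 by 1.68 on the log2 scale (SE 0.17, adjusted p = 0.00176). Endog, the mitochondrial endonuclease G, had 11.8 and 5.42 FPKM in the Eµ-deleted line, 10.6 and 7.51 FPKM in CBE line 2, 3.27 and 3.80 FPKM in CBE line 1, and 5.31e-08 and 4.92e-08 in WT. Its locus overlaps D2Wsu81e, which had 24.9 and 26.1 FPKM in WT, and how Cufflinks divided reads between the pair is uncertain. Mpg, the glycosylase that removes alkylated bases, ranged over the mutant libraries only between 7 and 11.8 FPKM, against at most 0.0354 in WT. Syce2, a meiotic synaptonemal complex protein, had 4.94 and 4.65 FPKM in the Eµ-deleted line, 3.99 and 2.98 FPKM in CBE line 2, 7.18 and 6.73 FPKM in CBE line 1, and 0.119 and 0.0624 in WT. It was lower in CBE line 2 than in CBE line 1 (-0.84, SE 0.13, adjusted p = 0.00886, called in 6 of 8 fits that each left out 1 library).

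Chromatin and transcription regulators were Smyd2, Mta3, Zfp280d, Sertad4 and Akip1. Smyd2 (chr1:191704371-191746167), a lysine methyltransferase, had 28.8 and 19.8 FPKM in the Eµ-deleted line, 24.8 and 24.3 FPKM in CBE line 2, 24.8 and 23.7 FPKM in CBE line 1, and 0 and 0 in WT. It was the highest of the genes listed at 0 in WT, and the mutant lines overlapped. Mta3, a NuRD subunit studied in B cells, had 7.67 and 9.99 FPKM in the Eµ-deleted line, 15.1 and 17.3 FPKM in CBE line 2, 12.3 and 16.8 FPKM in CBE line 1, and 0.145 and 0.0113 in WT. Its lower level in the Eµ-deleted line (-0.73, SE 0.16, adjusted p = 0.0299) was called in 2 of 8 leave-outs. The zinc finger gene Zfp280d (8.66 to 11.5 FPKM in the mutant libraries), Sertad4 (4.28 to 8.28) and Akip1, which encodes a protein kinase A interacting protein (11.9 to 23.5), did not pass the threshold in either comparison among mutant lines, except Akip1 with the replicate block.

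Enzymes made up 8 of the 52: Npepl1, B4galnt1, Suclg2, Hmgcll1, Gnpda2, Smpd2, Abhd14a and Hpse. Npepl1 (chr2:173935852-173948203), an aminopeptidase-like protein, had the highest mutant mean: 49.95 and 48.3 FPKM in the Eµ-deleted line, 49.9 and 51.8 FPKM in CBE line 2, 44.5 and 50.6 FPKM in CBE line 1, and 0.303 and 0.338 in WT. Its 6 mutant libraries lay within 1.16-fold of one another. B4galnt1 (chr10:126602212-126609396), the GM2/GD2 synthase of ganglioside synthesis, had 43.0 and 50.8 FPKM in the Eµ-deleted line, 43.0 and 51.8 FPKM in CBE line 2, 25.2 and 45.5 FPKM in CBE line 1, and 0.0739 and 0.0582 in WT. The mutant lines overlapped. Hmgcll1, an HMG-CoA lyase, had 15.3 and 18.8 FPKM in the Eµ-deleted line, 5.47 and 6.64 FPKM in CBE line 2, 13.2 and 12.8 FPKM in CBE line 1, and 0.123 and 0.0913 in WT. It was higher in the Eµ-deleted line than in the CBE lines (0.86, SE 0.11, adjusted p = 0.00416), with CBE line 2 the lowest mutant line. Suclg2, the GTP-specific beta subunit of succinyl-CoA ligase, had 22.3 and 17.8 FPKM in the Eµ-deleted line, 11.4 and 10.4 FPKM in CBE line 2, 20.1 and 15.5 FPKM in CBE line 1, and 0.0103 and 0 in WT. CBE line 2 was the lowest mutant line for this gene. Abhd14a, an alpha/beta hydrolase fold protein, had 11.9 and 10.7 FPKM in the Eµ-deleted line, 16.4 and 14.6 FPKM in CBE line 2, 10.1 and 9.90 FPKM in CBE line 1, and 0.0733 and 0.0986 in WT. Hpse, the heparan sulfate cleaving heparanase, had 2.81 and 4.02 FPKM in the Eµ-deleted line, 7.28 and 7.50 FPKM in CBE line 2, 2.06 and 2.79 FPKM in CBE line 1, and 0.329 and 0.445 in WT. For both, CBE line 2 held the highest values. Gnpda2, a glucosamine-6-phosphate deaminase (7.72 to 14.9 FPKM in the mutant libraries), and Smpd2, a neutral sphingomyelinase (6.72 to 9.28), completed the group.

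Cell surface proteins were Cd97, S1pr1, Sdc1, Ryk, Tspan5, Itm2a and Itm2c. Cd97, an adhesion G protein-coupled receptor (now Adgre5), had 11.6 and 16.8 FPKM in the Eµ-deleted line, 3.06 and 2.91 FPKM in CBE line 2, 19.9 and 18.3 FPKM in CBE line 1, and 0.470 and 0.351 in WT. CBE line 2 was the lowest mutant line, below CBE line 1 by a log2 difference of -2.33 (SE 0.17, adjusted p = 0.000342). Ryk (chr9:102737250-102810637), a Wnt-binding receptor of the tyrosine kinase family, had 28.2 and 32.8 FPKM in the Eµ-deleted line, 30.7 and 32.4 FPKM in CBE line 2, 11.9 and 15.8 FPKM in CBE line 1, and 0.0180 and 0.0177 in WT. CBE line 1 was the lowest mutant line. The BRICHOS family genes Itm2c and Itm2a were highest in CBE line 2. Itm2c had 2.42 and 3.62 FPKM in the Eµ-deleted line, 9.91 and 11.1 FPKM in CBE line 2, 3.94 and 4.91 FPKM in CBE line 1, and 0 and 0 in WT. The Eµ-deleted libraries lay below all CBE libraries (-0.99, SE 0.14, adjusted p = 0.00613). Itm2a had 7.42 and 7.69 FPKM in the Eµ-deleted line, 14.1 and 13.4 FPKM in CBE line 2, 8.67 and 8.12 FPKM in CBE line 1, and 0 and 0.0121 in WT. The sphingosine-1-phosphate receptor S1pr1, which guides lymphocyte egress (3.15 to 8.97 FPKM in the mutant libraries), the tetraspanin Tspan5 (6.37 to 12.1) and Sdc1, the syndecan known as a plasma cell marker (2.17 to 4.54), did not pass the threshold among mutant lines, except Tspan5 with the replicate block.

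Secreted and matrix genes were Fstl1 and Col27a1. Fstl1, a follistatin-like glycoprotein, had 2.52 and 2.43 FPKM in the Eµ-deleted line, 15.5 and 14.7 FPKM in CBE line 2, 10.7 and 11.3 FPKM in CBE line 1, and 0.0194 and 0.0152 in WT. Of all 52 genes it had the smallest adjusted p for the Eµ-deleted minus CBE difference (log2 difference -2.0, SE 0.08, adjusted p = 1.96e-05). Col27a1, a fibrillar collagen chain, had 4.32 and 5.47 FPKM in the Eµ-deleted line, 2.71 and 2.23 FPKM in CBE line 2, 3.30 and 3.16 FPKM in CBE line 1, and 0.00594 and 0 in WT, with the Eµ-deleted libraries the highest.

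Signalling and death regulators were Ngfrap1, Bok, Gng12, Prr5, Mapkapk3, Dclk2, Cnrip1 and Fgf13. Ngfrap1 (now Bex3, chrX:132804792-132806517), an adaptor of the p75 neurotrophin receptor, had 34.0 and 41.5 FPKM in the Eµ-deleted line, 63.6 and 61.9 FPKM in CBE line 2, 38.2 and 43.3 FPKM in CBE line 1, and 0.0160 and 0 in WT. CBE line 2 held the highest values of any of the 52 genes. Bok (chr1:95582271-95592339), a BCL2-family death effector, had 9.60 and 4.17 FPKM in the Eµ-deleted line, 31.2 and 27.7 FPKM in CBE line 2, 31.1 and 21.8 FPKM in CBE line 1, and 0.278 and 0.211 in WT. Both Eµ-deleted libraries were below every CBE library (-1.95, SE 0.29, adjusted p = 0.00615). Prr5, a subunit of mTOR complex 2 (protor-1), had 4.75 and 4.45 FPKM in the Eµ-deleted line, 5.53 and 5.75 FPKM in CBE line 2, 15.1 and 20.6 FPKM in CBE line 1, and 0.0270 and 0 in WT. It was lower in CBE line 2 than in CBE line 1 (-1.49, SE 0.14, adjusted p = 0.00141) and lower in the Eµ-deleted line than in the CBE lines (-0.99, SE 0.13, adjusted p = 0.00343). Gng12, a G protein gamma subunit, had 3.95 and 3.78 FPKM in the Eµ-deleted line, 7.54 and 6.75 FPKM in CBE line 2, 4.89 and 4.54 FPKM in CBE line 1, and 0 and 0 in WT. Mapkapk3, a stress-activated kinase, had 5.99 and 11.04 FPKM in the Eµ-deleted line, 2.76 and 2.83 FPKM in CBE line 2, 7.56 and 11.3 FPKM in CBE line 1, and 0.0549 and 0.0132 in WT. Gng12 was thus highest and Mapkapk3 lowest in CBE line 2 among the mutant lines. Dclk2, a doublecortin-like kinase, had 4.75 and 8.32 FPKM in the Eµ-deleted line, 3.56 and 3.92 FPKM in CBE line 2, 2.78 and 3.29 FPKM in CBE line 1, and 0.396 and 0.379 in WT. Fgf13, an intracellular fibroblast growth factor homologue, had 4.46 and 5.58 FPKM in the Eµ-deleted line, 2.63 and 3.62 FPKM in CBE line 2, 2.39 and 2.99 FPKM in CBE line 1, and 0.176 and 0.0859 in WT. Both were highest in the Eµ-deleted line. Cnrip1, a cannabinoid receptor interacting protein, had 10.5 to 17.6 FPKM in the mutant libraries.

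Cytoskeletal, ciliary and trafficking genes were Fam92a, Cntln, Sptbn1, Wdr11 and Praf2. Fam92a (now Cibar1, chr4:12080869-12099162), a BAR-domain protein of the ciliary base, had 19.0 and 19.1 FPKM in the Eµ-deleted line, 42.3 and 42.4 FPKM in CBE line 2, 33.8 and 31.0 FPKM in CBE line 1, and 0.0196 and 0.0154 in WT. The Eµ-deleted libraries were the lowest mutant ones (-0.92, SE 0.08, adjusted p = 0.000466). Cntln, the centrosomal protein centlein, had 11.02 and 15.1 FPKM in the Eµ-deleted line, 3.92 and 4.73 FPKM in CBE line 2, 7.38 and 9.31 FPKM in CBE line 1, and 0.00495 and 0 in WT. It ran the other way, higher in the Eµ-deleted line (0.98, SE 0.15, adjusted p = 0.00764). Praf2 (chrX:7305697-7308189), an ER-resident prenylated Rab acceptor family member, had 24.4 and 22.8 FPKM in the Eµ-deleted line, 23.1 and 21 FPKM in CBE line 2, 15.0 and 16.6 FPKM in CBE line 1, and 0.429 and 0.431 in WT. Sptbn1, the spectrin beta chain (9.53 to 15.8 FPKM in the mutant libraries), and Wdr11, a WD-repeat protein of endosome-to-Golgi trafficking (11.2 to 13.7), did not pass the threshold among mutant lines and were at most 0.00666 and 0.00398 FPKM in WT.

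The remaining genes were Rnf144a, Rcbtb1, Cuedc1, Rundc3b, Tmem41a, Ctla2b and 6 models without an assigned protein role here. Rnf144a, an RBR-type ubiquitin ligase, had 3.58 to 5.96 FPKM in the mutant libraries, and Tmem41a, a multipass membrane protein, 14.6 to 18.3. Rcbtb1, Cuedc1 and Rundc3b are named for their domains. Rcbtb1 had 2.83 and 4.10 FPKM in the Eµ-deleted line, 5.56 and 6.96 FPKM in CBE line 2, 2.83 and 3.13 FPKM in CBE line 1, and 0.00745 and 0 in WT. Rundc3b had 6.08 and 7.38 FPKM in the Eµ-deleted line, 9.59 and 10.4 FPKM in CBE line 2, 6.15 and 6.35 FPKM in CBE line 1, and 0.461 and 0.324 in WT. Cuedc1 had 2.40 and 3.31 FPKM in the Eµ-deleted line, 6.97 and 8.69 FPKM in CBE line 2, 3.78 and 7.01 FPKM in CBE line 1, and 0.167 and 0.0310 in WT. All 3 had their highest mean in CBE line 2. Ctla2b, a cysteine protease inhibitor of the cathepsin propeptide type, had 2.14 to 6.51 FPKM, and reads can be shared with its near-identical copy Ctla2a. The 6 models were Chd3os (named as an antisense transcript of Chd3), Hmga2-ps1 (named as a pseudogene), 2810468N07Rik, 6030408B16Rik, A230050P20Rik and Rd3l. Chd3os had 3.74 and 4.32 FPKM in the Eµ-deleted line, 6.15 and 6.61 FPKM in CBE line 2, 2.19 and 2.36 FPKM in CBE line 1, and 0.00700 and 0.0329 in WT, and it was higher in CBE line 2 than in CBE line 1 (1.17, SE 0.10, adjusted p = 0.000787). The gene model 6030408B16Rik had 10.7 and 9.51 FPKM in the Eµ-deleted line, 5.68 and 4.59 FPKM in CBE line 2, 4.16 and 2.09 FPKM in CBE line 1, and 0.344 and 0.432 in WT. The model 2810468N07Rik had 4.05 and 5.93 FPKM in the Eµ-deleted line, 3.89 and 3.496 FPKM in CBE line 2, 2.02 and 2.38 FPKM in CBE line 1, and 0.375 and 0.272 in WT. Both were highest in the Eµ-deleted line. Values of Chd3os and Hmga2-ps1 are uncertain, since the strand setting of the counting and the handling of shared reads are not stated.

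Among the mutant lines the 52 genes were unequal. The rule set only a lower limit for the mutant libraries, and all 52 entered the limma fit over 10479 genes. That fit takes its spread from all lines, including the WT pair, which the rule held near zero for these genes. The shares called below are therefore not independent of the choice of the genes and give no test of them. When the Eµ-deleted line was set against both CBE lines, 21 of 52 (40.4%) passed the threshold, 9 higher and 12 lower, where 12.4% of all genes did (5.16% higher and 7.25% lower). In CBE line 2 against CBE line 1 the count was also 21 (14 higher and 7 lower), where 10.2% of all genes did (5.17% higher and 5.03% lower). These counts depended on single libraries. For the Eµ-deleted line the count was 10 without CBE line 2 replicate 1 or 2, where 5.96% and 5.88% of all genes were called. It was 13 without WT replicate 1 or 2 (8.26% and 8.27% of all genes) or without Eµ-deleted replicate 2 (7.09%), and 20 without Eµ-deleted replicate 1 (21.8%). For the CBE lines it was 7 and 5 without CBE line 2 replicates 1 and 2 (2.79% and 2.497% of all genes), 10 and 13 without CBE line 1 replicates 1 and 2 (5.73% and 7.2%), and 12 without either WT replicate (6.70% and 6.65%). Without either Eµ-deleted replicate it was 25 (13.2% and 13.1%). With the replicate number as a block the counts were 27, where 22.2% of all genes were called, and 23, where 16.6% were. The block added Akip1, Hmga2-ps1 and Mpg as lower in the Eµ-deleted line (limma adjusted p = 0.0344, 0.0439 and 0.0254) and A230050P20Rik, Praf2 and Suclg2 as higher (0.0235, 0.0392 and 0.0160). Between the CBE lines it added Endog and Tspan5 as higher in CBE line 2 (0.0371 and 0.04996). The median absolute log2 difference was 0.45 for the 52 genes and 0.18 for all genes in the Eµ-deleted comparison, and 0.48 and 0.16 between the CBE lines, which describes the list and tests nothing.

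**Figure D3:**
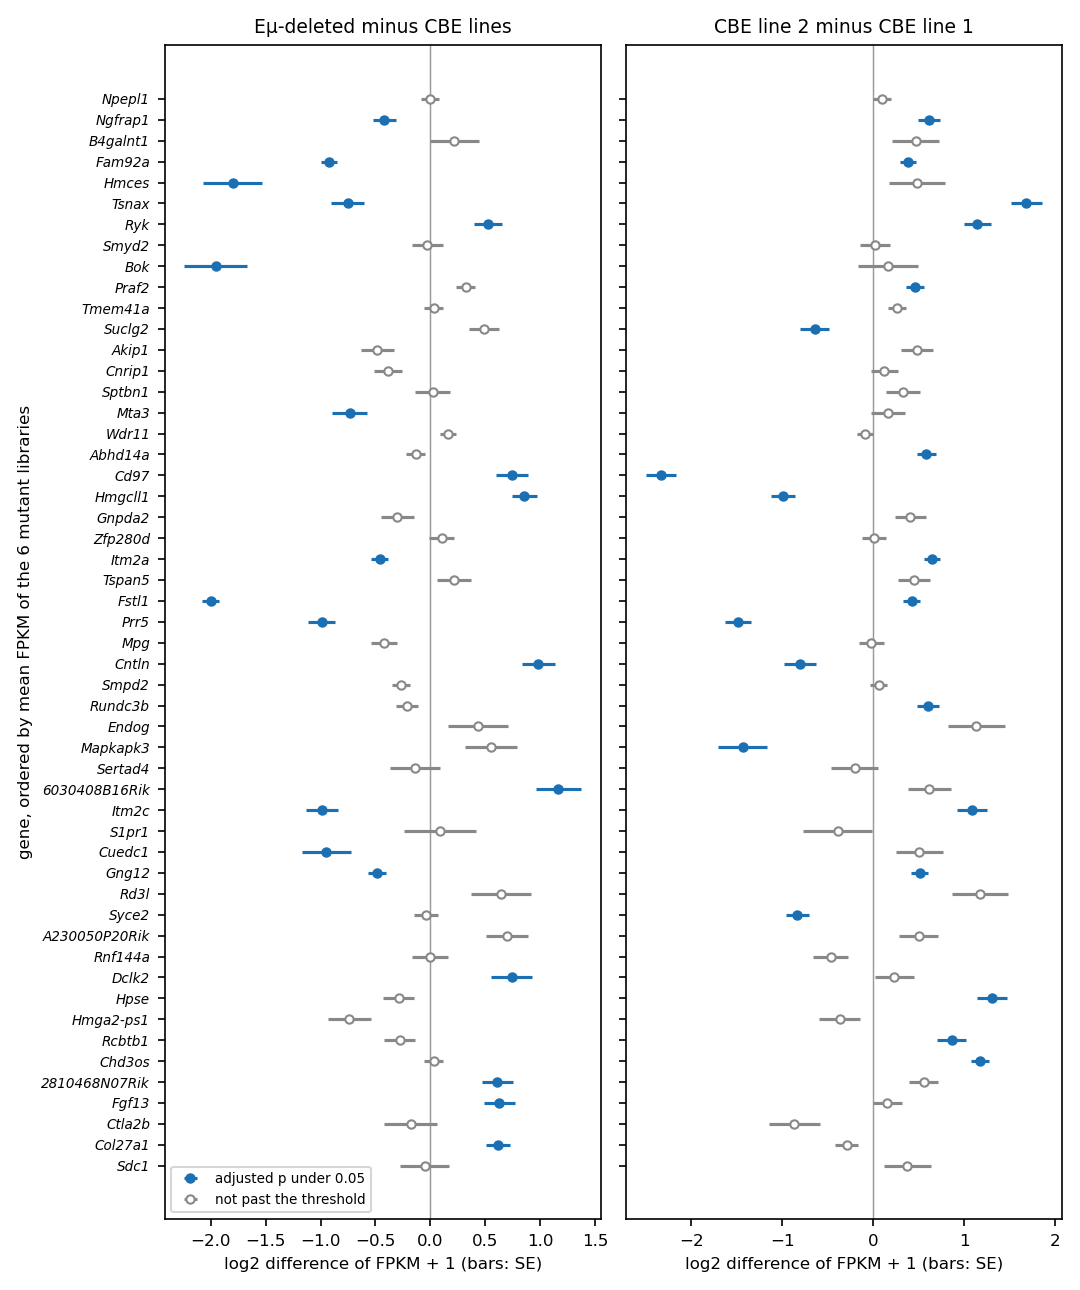
Log2 difference of FPKM + 1 (x axes, bars are SE) for each of the 52 genes (down), for the Eµ-deleted line minus the CBE lines (left) and CBE line 2 minus CBE line 1 (right); filled points have an adjusted p under 0.05. Fstl1, Bok and Hmces lie farthest to the left in the first panel, and Cd97 (lowest) and Tsnax (highest) mark the ends of the second.

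In the Eµ-deleted comparison 8 of the 21 calls held in all 8 leave-outs: Bok, Fam92a, Fstl1, Hmces, Itm2c and Prr5 were lower, and Cntln and Hmgcll1 higher. The other calls were lost without at least 1 library: 2810468N07Rik, 6030408B16Rik, Cd97, Col27a1, Dclk2, Fgf13 and Ryk (higher), and Cuedc1, Gng12, Itm2a, Mta3, Ngfrap1 and Tsnax (lower). The comparison is with the average of the CBE lines. The Eµ-deleted mean of Cd97 (14.2 FPKM) lay between CBE line 2 (2.99) and CBE line 1 (19.1), that of Ryk (30.5) between CBE line 2 (31.5) and CBE line 1 (13.8), and that of Tsnax (16.9) between CBE line 2 (53.0) and CBE line 1 (16.1). Between the CBE lines 4 of the 21 held in all 8: Chd3os and Tsnax were higher in CBE line 2, and Cd97 and Prr5 lower. The calls lost without at least 1 library were Abhd14a, Fam92a, Fstl1, Gng12, Hpse, Itm2a, Itm2c, Ngfrap1, Praf2, Rcbtb1, Rundc3b and Ryk (higher), and Cntln, Hmgcll1, Mapkapk3, Suclg2 and Syce2 (lower). In all, 12 genes were called in both comparisons and 22 in neither. By line mean, 15 genes were highest in the Eµ-deleted line, 28 in CBE line 2 and 9 in CBE line 1. The ratio of highest to lowest mutant library was under 1.5 for 6 genes and 3 or more for 19.

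The 52 genes lay apart from one another. They were spread over 18 chromosomes, with 6 on chromosome 9, 5 each on chromosomes 1 and 11, and 4 on X (Ngfrap1, Itm2a, Praf2 and Fgf13), and no 2 of them lay within 250 kb of each other in mm9. Of 511 other genes within 250 kb, 274 passed the filter on low values, and 68 of these (24.8%) differed between the mean of the 3 mutant lines and WT, 39 higher and 29 lower. Over all genes the share was 24.6% (13.7% higher and 10.9% lower), so the neighbours' share was near that of all genes, and their median log2 difference was 0.03. The count was 18 without WT replicate 1 or 2, where 9.67% and 8.35% of all genes were called, and 38 and 33 without CBE line 2 replicates 1 and 2 (16.02% and 15.8% of all genes). It was 102 with the replicate block (36.1% of all genes), and 34 of 124 within 100 kb (27.4%) and 106 of 464 within 500 kb (22.8%). Of the 74 nearest tested neighbours, one on each side where there was one, 16 were higher and 10 lower (35.1% called, 21.6% higher and 13.5% lower). That count of 26 was 8 and 7 without WT replicates 1 and 2, 13 and 11 without CBE line 2 replicates 1 and 2, and 36 with the replicate block. Of the same 74, 62 had 2 or more FPKM in both WT libraries and 3 were under 0.5 in both. For 43 of the 52 genes a gene within 250 kb had 2 or more FPKM in both WT libraries. The filter behind the 74 favours expressed genes, and no matching share over all genes is given for these counts of WT level. They describe the neighbours and are no result about the 52 genes.

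**Figure D4:**
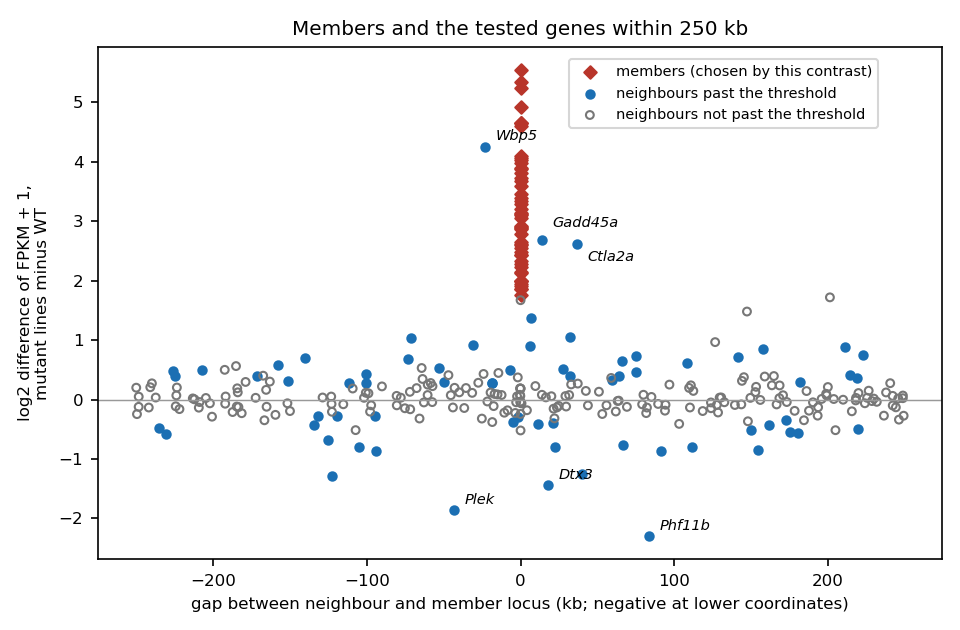
Log2 difference of FPKM + 1, mutant lines minus WT (y axis), of the 52 genes (diamonds at 0 kb, chosen by this contrast) and of tested genes within 250 kb, at their distance from the locus in kb (x axis; negative at lower coordinates). Filled circles passed the threshold (68 genes, 39 of them above zero), and Wbp5, Gadd45a and Ctla2a are the neighbours within the range of the diamonds that passed it.

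Of 9 genes within 1 kb without overlap, 4 were tested, and limma called 0 of these 4 (0 at an unadjusted p under 0.05). These 4 were expressed in WT, but the filter (1 FPKM or more in at least 2 libraries) favours expressed genes. Sox8, 124 bp from 2810468N07Rik, was at 0 in both WT libraries and at most 0.111 FPKM in the mutant ones, and was not tested. Mical1, the flavin monooxygenase that oxidises actin, lies 141 bp from Smpd2 and had 28.1 and 35.1 FPKM in the Eµ-deleted line, 26.7 and 27.9 FPKM in CBE line 2, 28.6 and 31.8 FPKM in CBE line 1, and 27.3 and 29.3 in WT (log2 difference 0.06, SE 0.10, adjusted p = 0.710). Copg1, a COPI coat subunit 381 bp from Hmces, had 34.8 and 29.5 FPKM in the Eµ-deleted line, 39.1 and 37.1 FPKM in CBE line 2, 35.5 and 32.6 FPKM in CBE line 1, and 32.8 and 32.6 in WT (0.08, SE 0.09, adjusted p = 0.559). For both genes the WT values lay within the range of the mutant libraries. Wdr45, an autophagy gene 369 bp from Praf2 (0.19, SE 0.25, adjusted p = 0.625), and Chd3, the NuRD helicase gene 625 bp from Chd3os (-0.06, SE 0.09, adjusted p = 0.637), did not pass the threshold. Another 14 gene entries overlapped one of the 52 loci, and limma called 0 of the 8 tested (2 at an unadjusted p under 0.05). With the replicate block 2 of these were lower in the mutant lines, Mrps23 at Cuedc1 (adjusted p = 0.0413) and Gcdh at Syce2 (adjusted p = 0.00643). Start sites within 1 kb in divergent orientation, by the strands of GENCODE, were found for 3 pairs (Sox8 with 2810468N07Rik, Abhd14b with Abhd14a, Ppil6 with Smpd2), and none of the 3 partners passed the filter. Abhd14b was at 0.501 and 0.542 FPKM in the Eµ-deleted line, 0.252 and 0.373 FPKM in CBE line 2, 0.447 and 0.664 FPKM in CBE line 1, and 0.0173 and 0 in WT, and was not tested.

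A few neighbours were, like the gene beside them, higher in the mutant lines than in WT. Wbp5 (now Tceal9), of the same BEX/TCEAL family as Ngfrap1 and 23113 bp from it, had 28.6 and 28.6 FPKM in the Eµ-deleted line, 39.7 and 42.4 FPKM in CBE line 2, 52.0 and 39.7 FPKM in CBE line 1, and 1.30 and 0.785 in WT. The lines did not overlap WT (log2 difference 4.25, SE 0.14, adjusted p = 5.19e-06). Gadd45a, a stress-induced growth arrest gene 13734 bp from Gng12, had 14.2 and 14.6 FPKM in the Eµ-deleted line, 11.01 and 10.7 FPKM in CBE line 2, 11.1 and 6.58 FPKM in CBE line 1, and 1.23 and 0.568 in WT. It was higher in the mutant lines by 2.69 (SE 0.20, adjusted p = 0.000175). Among the mutant lines, Gadd45a was highest in the Eµ-deleted line, where Gng12 was lowest. Ctla2a, 36707 bp from Ctla2b, was higher by 2.61 (SE 0.12, adjusted p = 2.38e-05), with the reservation on shared reads given above. Ctla2a and Ctla2b both had their highest mean in CBE line 1. Akna near Col27a1 (1.06, SE 0.11, adjusted p = 0.000913), Ppp1r13b near Rd3l (1.04, SE 0.14, adjusted p = 0.00227) and 4930486L24Rik near Ctla2b (0.91, SE 0.12, adjusted p = 0.00243) were higher too. These 6 calls held in all 8 leave-outs. Cish, a cytokine signalling inhibitor near Mapkapk3, was higher by 1.38 (SE 0.36, adjusted p = 0.0352) but lost the call without either CBE line 2 library (0.0628 and 0.0797), Eµ-deleted replicate 2 (0.0635) or either WT library (0.0623 and 0.283).

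Other neighbours were, unlike the gene beside them, lower in the mutant lines than in WT. Phf11b, 83698 bp from Rcbtb1, had 1.05 and 1.25 FPKM in the Eµ-deleted line, 1.33 and 1.26 FPKM in CBE line 2, 0.967 and 4.12 FPKM in CBE line 1, and 10.2 and 12.4 in WT. It was lower in the mutant lines (log2 difference -2.29, SE 0.32, adjusted p = 0.00302), as was its relative Phf11a at the same locus (-1.26, SE 0.09, adjusted p = 0.000164), which left the tested genes when a WT library was removed. Plek, the platelet and leukocyte protein pleckstrin near Cnrip1, had 3.495 and 3.58 FPKM in the Eµ-deleted line, 5.49 and 6.24 FPKM in CBE line 2, 3.52 and 8.86 FPKM in CBE line 1, and 18.6 and 22.6 in WT. It was lower in the mutant lines (log2 difference -1.86, SE 0.27, adjusted p = 0.00339), with an adjusted p of 0.0505 without WT replicate 2. Dtx3, a Deltex-type ubiquitin ligase 18037 bp from B4galnt1, differed by -1.44 (SE 0.31, adjusted p = 0.0170) and lost the call without WT replicate 1 (0.123) or 2 (0.115). Wdr34, a dynein intermediate chain near Endog, was lower (-1.29, SE 0.13, adjusted p = 0.000757) and kept its call in all 8 leave-outs.

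Beside the 10 genes of highest mutant level, the nearest tested neighbours not yet named went either way. Gnas, a G protein alpha subunit gene near Npepl1, was lower in the mutant lines (-0.43, SE 0.09, adjusted p = 0.0155) and lost the call without CBE line 2 replicate 2 (0.0566) or WT replicate 1 (0.133) or 2 (0.154). Rbm12b1 near Fam92a (0.50, SE 0.13, adjusted p = 0.0321) and the kinase gene Stk25 near Bok (0.29, SE 0.08, adjusted p = 0.0433) were higher, and were called in 4 and 3 of 8 leave-outs. The syntaxin gene Stx16 beside Npepl1 (-0.22, adjusted p = 0.159), Egln1 beside Tsnax (0.35, adjusted p = 0.0883) and Cenpf near Smyd2 (0.50, adjusted p = 0.0696) did not pass the threshold as fitted but did with the replicate block (0.0379, 0.0123 and 0.00812). Thap4 beside Bok (0.23, adjusted p = 0.132), Os9 near B4galnt1 (-0.13, adjusted p = 0.268), Anapc13 near Ryk (-0.29, adjusted p = 0.201) and the short Mir684-1 near Praf2 (-0.32, adjusted p = 0.640) did not pass it. H1fx, a linker histone gene near Hmces, had 0.0977 and 0.370 FPKM in the Eµ-deleted line, 22.8 and 23.9 FPKM in CBE line 2, 0.0154 and 0.0656 FPKM in CBE line 1, and 2.89 and 1.91 in WT (-0.10, adjusted p = 0.642). It was high in CBE line 2 alone. Beside the other genes, Cd1d2 near Dclk2 (0.65, SE 0.07, adjusted p = 0.00121) and Ubtd2 near Mpg (0.76, SE 0.09, adjusted p = 0.00131) were higher and 1300002E11Rik near Tmem41a lower (-0.68, SE 0.09, adjusted p = 0.00183) in all 8 leave-outs. The nearest neighbours whose calls were lost without at least 1 library were Eml6, Gpr174, Lrrc58, Mns1, Orm2, Pcbp4 and Pum2 (higher), and Abcb1b, Ccbl1, Coq2, Dnase2a and Guf1 (lower).

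Relatives and complex partners of some of the 52 genes were looked up. A set of 49 partners was drawn up for 35 of the genes after values had been seen, so it supports nothing. Of these, 38 had 2 or more FPKM in both WT libraries, which gave 28 of the 52 genes such a partner. No share over all genes is given beside this count. Of 41 tested against WT, 6 were higher and 4 lower (24.4%, near the 24.6% of all genes), and 31 were not called. Suclg1, the alpha subunit that pairs with Suclg2, was at 77.9 and 75.6 FPKM in WT (log2 difference -0.10, adjusted p = 0.692). Tsn, the translin partner of Tsnax, had 52.3 and 37.5 FPKM in the Eµ-deleted line, 65.5 and 61.2 FPKM in CBE line 2, 61.5 and 53.5 FPKM in CBE line 1, and 51.7 and 47.9 in WT (0.13, SE 0.13, adjusted p = 0.543). The WT values of Tsn lay within the range of the mutant libraries, while those of Tsnax were near zero. Sptan1, the alpha spectrin that binds Sptbn1, was higher in the mutant lines (0.69, adjusted p = 0.00826), and Bax, a death effector related to Bok, was lower (-0.54, adjusted p = 0.00807), each called in 6 of 8 leave-outs.

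In the ganglioside pathway around B4galnt1, 13 of 19 listed genes were tested against WT, with 5 higher and 1 lower (46.2%, where 24.6% of all genes were called) and a median log2 difference of 0.14, against 0.02 for all genes. Hexa, the lysosomal subunit that degrades GM2, had 0 and 0.0213 FPKM in the Eµ-deleted line, 0.0535 and 0.0689 FPKM in CBE line 2, 1.95 and 2.23 FPKM in CBE line 1, and 11.3 and 11.5 in WT. It was thus lower in the mutant lines (-3.06, SE 0.07, adjusted p = 1.86e-06). St3gal5, the GM3 synthase one step before B4galnt1, had 1.05 and 1.04 FPKM in the Eµ-deleted line, 4.67 and 4.38 FPKM in CBE line 2, 0.0974 and 0.184 FPKM in CBE line 1, and 0.00541 and 0 in WT. The mutant lines were higher than WT by 1.22 on average (SE 0.07, adjusted p = 5.70e-05), with CBE line 1 the lowest of them. St3gal1, a sialyltransferase, was higher too (1.25, SE 0.15, adjusted p = 0.00154), and these 3 calls held in all 8 leave-outs. B3galt4 (0.76, adjusted p = 0.00503) and St3gal2 (0.59, adjusted p = 0.0478) were called in 7 and 3 of them. The replicate block added St6galnac4 as lower in the mutant lines (-0.32, adjusted p = 0.0216).

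The other pathway lists were short and mixed in direction against WT. Over all genes 24.6% were called in this comparison as fitted, and 36.1% with the replicate block. Of the BEX/TCEAL genes 13 were in the files and 2 were tested, Wbp5 (above) and Bex6, which was lower in the mutant lines (-0.79, SE 0.19, adjusted p = 0.0245, called in 4 of 8 leave-outs). Of translin and small RNA partners limma called 0 of 4 (1 at an unadjusted p under 0.05). With the replicate block 2 were called, Prkra as higher (0.30, adjusted p = 0.0398) and Tarbp2 as lower (-0.21, adjusted p = 0.0425). Of 16 base excision and abasic site genes 1 (6.25%) was higher (Neil3, 0.59, adjusted p = 0.0337, called in 3 of 8 leave-outs). The block added Apex1 as higher (0.40, adjusted p = 0.0111) and Nthl1 as lower (-0.23, adjusted p = 0.0389). Of 10 aminopeptidases 2 were higher and 2 lower (40%). Among them, Enpep, the pro-B surface antigen BP-1, had 2.00 and 1.18 FPKM in the Eµ-deleted line, 106 and 112 FPKM in CBE line 2, 99.1 and 90.1 FPKM in CBE line 1, and 174 and 170.3 in WT. It was lower in the mutant lines (-2.53, SE 0.13, adjusted p = 2.88e-05), and the Eµ-deleted line lay far below the rest. Of 5 ciliary partners of Fam92a 2 (40%) were lower, Ahi1 (-1.27, SE 0.16, adjusted p = 0.00193) and Cep290 (-0.36, SE 0.09, adjusted p = 0.0244), the second in 4 of 8 leave-outs.

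As a check of the labels, all 13 pro-B markers had 1 FPKM or more in every library, with sums of 5548 and 5850 in the Eµ-deleted line, 4422 and 4195 FPKM in CBE line 2, 5542 and 5843 FPKM in CBE line 1, and 5402 and 4459 in WT. Summed myeloid markers were at 1.61 to 8.85 FPKM over all libraries, with 5 of 7 under 0.1 in every library, and stromal markers at 0 to 0.0382, with 6 of 6 under 0.1. Of the T cell markers Lck alone was expressed throughout, and Cd3e, Cd4 and Cd8a were listed at 0 in every library. NK markers summed to 0.747 to 3.31 and erythroid ones to 0.140 to 0.268. Some of these markers differed between the mutant lines and WT. Itgam (0.81, adjusted p = 0.00363) and Klrd1 (0.77, adjusted p = 0.00193) were higher, called in 7 and 6 of 8 leave-outs. Both were low: Itgam was at most 1.66 FPKM. Klrd1 had 2.22 and 2.19 FPKM in CBE line 2, but 0.126 and 0.320 in the Eµ-deleted line and 0.0665 and 0.130 in WT. Klrb1c (-0.84, adjusted p = 0.00222) and Lck (-1.17, adjusted p = 0.00875) were lower, called in 8 and 6 of 8 leave-outs. Lyz2 was lower with the replicate block (adjusted p = 0.00844). Of the 13 pro-B markers 3 were higher (23.1%, near the 24.6% of all genes), among them Cd79b and Pax5. With the block 6 of the 13 were called, where 36.1% of all genes were. Of these, Dntt was lower in the mutant lines (-0.87, adjusted p = 0.00876). The part of all these markers in the levels of the 52 genes was not tested. Libraries of one line correlated at 0.978 to 0.992 across genes and those of different lines at 0.926 to 0.964, and 9808 to 10043 genes per library had 1 FPKM or more.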

How the data were processed

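Poly(A) RNA of 8 libraries gave single reads of 75 bp, aiming at 20 to 30 M, per the labels' protocols. TopHat, Cufflinks and mm9 are named in the submitters' processing notes. Their versions and settings, and the strand rule of counting, were not given in the sources used here. Deposited per gene are an FPKM, its interval and a status, per the file headers, for 24459 entries. FPKM of 277 symbols at several loci were summed, and 21 symbols whose status was not OK throughout were dropped. Read depth per library is unknown, so no counting interval is given beyond the deposited one.

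Genes with 1 FPKM or more in at least 2 libraries (10479) were fitted with limma 3.58.1 (R 4.3.3) to log2(FPKM + 1) with its trend option. The fit had 4 residual degrees of freedom and a prior of 2.65, with Benjamini-Hochberg adjustment over all genes (threshold 0.05). Differences on this scale understate changes of low genes. As fitted, the model held line alone, and the replicate number entered only in the fits named as a replicate block. Same-numbered libraries deviated together in every pair of lines (r = 0.279 to 0.502 across genes). Calls given without the block therefore ignore that pairing. Neighbours were entries within 250 kb in mm9. Promoter windows were those of RefSeq, with GRCm38.p6 coordinates unrelated to the mm9 ones. For a gene with several windows the one with most CpGs was used.

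The 52 genes, the lists and the comparisons were chosen with earlier results of these data known, and the partners and role groups after values were seen. Every one of the 52 is named. Described in depth are the 10 highest by mutant mean and those called between mutant lines. Neighbours named are the 12 largest called differences and, of the nearest tested ones, those of the 10 highest genes and all others that were called. Those within 1 kb were added after their values were seen. Promoter windows of A230050P20Rik, B4galnt1, Cd97, Chd3os, Fam92a, Hmga2-ps1, Mta3, S1pr1 and Tsnax were not used here. Of the called list genes, 2 are not reported here.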

Additional observations from a re-analysis of the deposited data

How the results depend on the processing

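The number of genes near zero only in WT was 52 and became 88 with a mutant limit of 1 FPKM and 25 with 5, 37 and 70 with WT limits of 0.25 and 1, and 52 to 61 without single libraries. Over all genes, calls were 535 (mean FPKM of 5 or more), 2331 (replicate block) and 610 to 2273 (leave-outs) for the Eµ-deleted line against both CBE lines, where the chosen fit gave 1301. Between the CBE lines they were 369, 1736 and 259 to 1373 (1069 as fitted), and for the mutant lines against WT 1430 and 867 to 3333, with 3781 under the block (2575 as fitted). Of the 52 genes, 11 and 10 to 20 were called in the Eµ-deleted comparison and 9 and 5 to 25 between the CBE lines, for a mean of 5 or more and for leave-outs. Neighbours called were 38 with a mean of 5 or more, 18 to 88 in leave-outs, 34 within 100 kb and 106 within 500 kb. The 38 were of 224 neighbours tested in that setting (16.96%), where 18.15% of all genes were called. Leaving out overlapping entries kept 68 of 266, and divergent partners gave 0 because none was tested. These 2 alternatives were chosen after seeing the data. None of the 172 results for single genes described next reversed under any alternative run. Partners and list genes were not part of that tally. Of 172 results for single genes (the 52 genes in both comparisons among mutant lines, and the called neighbours), the replicate block turned 8 into calls and left 164 as they were. Other settings lost calls: 22 with no filter, 18 of the 112 that remained with a mean of 5 or more, 11 with quantile normalization, 10 and 4 with pseudocounts of 0.1 and 5, 8 with median-of-ratios scaling and 2 without the trend. Quantile normalization also added 4 calls and median-of-ratios scaling 3. A robust prior changed none. Over all leave-outs a call was lost 320 times and gained 19 times, and 1031 comparisons kept their side of the threshold. The WT values rest on 1 line with 2 libraries, and unknown depth limits any statement on values listed at 0.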
